A study of Mus musculus with 2 samples.

Results

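Killer lectin-like receptors and the receptor NKp46 were described in lung adenocarcinoma of C57BL/6 mice through 7 genes, taken by name from a table of 17790 genes: Klrd1, Klrc1, Klrk1, Klre1, Klrb1c, Ncr1 and Klrg1. All 7 were in the table and each was detected among the Immune cells of the CD45-positive fraction. Tumours had been dissociated and their cells parted by magnetic beads against CD45, the surface phosphatase of leukocytes, into a CD45-negative and a CD45-positive fraction, each profiled as 1 droplet library of 3' transcript ends. With a single library for either fraction, no test between groups was possible, and single cells did not stand in for replicates. The labels give lung tissue of C57BL/6 mice for both fractions, and no other genotype or treatment. The labels and design text state neither the tumour model, the age and number of the mice nor the procedure behind the deposited cell classes, and they do not explain the word LucOS in the cell names.

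Killer lectin-like receptors are type II membrane proteins with a C-type lectin-like domain, found on natural killer (NK) cells and on some T cells, where they set the threshold for killing. CD94, the product of Klrd1, pairs with NKG2A, the product of Klrc1, as an inhibitory receptor for the class I-like molecule Qa-1, which H2-T23 encodes. NKG2D (Klrk1) is an activating receptor for stress-induced ligands of the RAE-1, H60 and MULT1 families, signalling through the adaptors DAP10 (Hcst) and DAP12 (Tyrobp). KLRE1 (Klre1) pairs with the products of Klri1 or Klri2. NK1.1 (Klrb1c) and NKp46 (Ncr1) are surface markers of mouse NK cells. KLRG1 (Klrg1) is an inhibitory receptor for cadherins, known on effector T cells, NK cells, group 2 innate lymphoid cells and a subset of regulatory T cells.

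In the GENCODE annotation of GRCm38 (mm10), all 7 are protein-coding genes. Of these, 6 lie on chromosome 6, and 5 of the 6 (Klrb1c at chr6:128778485-128789215, Klre1 at chr6:129577905-129585827, Klrd1 at chr6:129591782-129598775, Klrk1 at chr6:129610323-129623864 and Klrc1 at chr6:129666015-129678973) share a stretch of 900.5 kb. Klrg1 (chr6:122270596-122282882) lies 6.50 Mb away from that stretch, and Ncr1 lies at chr7:4337724-4345164. Klrc1, Klrb1c and the Ly49 genes have near-identical relatives nearby, so how the authors' counting parted reads among relatives bears on their levels and could not be checked here.

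The 250 bases before the transcription start were read from RefSeq's table for GRCm38.p6, which gave entries for 5 of the 7 genes. They were searched on both strands for 3 motifs: TGTGGT of the RUNX factors, GGTGTG of the T-box factors and AGGAAG of the ETS factors. The RUNX motif was in all 5 sequences, beside 14.0% of the 32851 promoters in the table. The T-box motif was in 0 of the 5 (16.3% of all promoters) and the ETS motif in 1 of the 5, Klrb1c (29.5%). The RefSeq starts of Klrb1c and Klre1 lie 574 and 308 bases from the GENCODE start, and their 250 bases fall inside the annotated gene. A match is a description of the letters and not a site. Klrk1, Klrc1 and Ncr1 are shown because they stand for 3 patterns of level and because their entries end at the annotated GENCODE start. The patterns are Klrk1 in the NK and CD8 gates and the cells of neither, Klrc1 in the CD8 and NK gates, and Ncr1 in the NK gate. Capitals mark TGTGGT or, on the other strand, ACCACA. Klrk1 lies on the minus strand with its upstream bases at chr6:129623865-129624114, Klrc1 on the minus strand at chr6:129678974-129679223 and Ncr1 on the plus strand at chr7:4337474-4337723.
Klrk1: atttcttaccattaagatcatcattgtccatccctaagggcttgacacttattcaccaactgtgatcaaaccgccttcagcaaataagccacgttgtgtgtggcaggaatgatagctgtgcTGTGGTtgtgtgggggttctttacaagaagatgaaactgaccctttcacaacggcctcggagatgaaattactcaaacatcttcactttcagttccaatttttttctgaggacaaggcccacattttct
Klrc1: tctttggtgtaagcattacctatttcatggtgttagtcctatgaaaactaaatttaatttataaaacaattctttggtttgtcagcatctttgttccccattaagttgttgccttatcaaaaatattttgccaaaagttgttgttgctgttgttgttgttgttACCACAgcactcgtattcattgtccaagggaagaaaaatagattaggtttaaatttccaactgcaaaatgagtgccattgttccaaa
Ncr1: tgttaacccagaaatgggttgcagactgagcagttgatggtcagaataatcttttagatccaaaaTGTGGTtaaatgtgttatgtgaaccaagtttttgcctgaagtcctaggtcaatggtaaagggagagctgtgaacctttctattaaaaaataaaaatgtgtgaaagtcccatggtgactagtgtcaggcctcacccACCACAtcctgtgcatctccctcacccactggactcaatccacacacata

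Transcripts were counted by unique molecular identifiers (UMI). The CD45-positive library had 11432 cells, 47477407 UMI in all and 3376 in the median cell, and 7438 of its cells were deposited as Immune. The CD45-negative library held 3957 cells with a median of 7710 UMI, of which 108 were Immune. Levels below are CPM, the UMI of a gene per 1000000 UMI summed over the cells of a group, and all intervals and limits are at 95% and cover counting error only. Immune cells were split by the sum of Cd3d, Cd3e and Cd3g, the chains of the T cell receptor complex: 2104 cells had 0 UMI, 1079 had 1 and 4255 (57.2%) had at least 2. The last group was parted into a CD8 gate of 1338 cells (Cd8a and Cd8b1 together at least 2 UMI, 0 of Foxp3), a Foxp3 gate of 191 cells (at least 1 UMI of Foxp3, the factor of regulatory T cells, and fewer than 2 of CD8), 53 cells with both, and 2673 cells with neither mark, called neither below. These are ranges of counts and not cell types: 704 of the 4255 cells had exactly 2 CD3 UMI, 369 of the CD8 gate exactly 2 CD8 UMI and 153 of the Foxp3 gate a single Foxp3 UMI. T cell transcripts were spread over the barcodes of this library. At least 2 CD3 UMI were also in 27.6% of its AT2 cells (alveolar type 2 epithelium) and 35.4% of its Endothelial cells, beside 0.227% of the cells of the CD45-negative library, and 1468 of the 4255 Immune cells also passed a B cell, plasma cell, macrophage, neutrophil or dendritic cell gate. In 9 T cell markers not used in any gate, the summed level was 1608.5 CPM in the CD8 gate, 1543 in the Foxp3 gate and 1307 in neither, beside 343 in CD3-zero cells of the B cell gate and 432 in the Endothelial class. No cells were removed and no doublet caller was run. The libraries shared 57 barcodes, 37 of them on Immune cells of the CD45-positive one. Leaving these out moved none of the 28 ratios of the CD3 split and of the CD8 and Foxp3 gates beyond its interval, and the other ratios below were not recomputed without them.

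The 7 genes fell into different patterns. Klrd1 was high in the CD8 gate and higher in 43 CD3-zero cells of an NK gate (232 and 347 CPM), and Klrc1 was high in both. Klrg1 was high in the Foxp3 gate, and Klrb1c, Ncr1 and Klre1 in the NK gate. Klrk1 was highest in the NK gate and was 1.24 times higher in the CD8 gate than in the cells of neither. The NK gate needed at least 3 of the 8 markers Nkg7, Gzma, Prf1, Eomes, Ctsw, Txk, Ccl5 and Cma1, and no other gate. The B cell, macrophage and dendritic cell gates needed at least 3 UMI summed over their own markers. Cells of the NK gate had a median of 2655 UMI. Their summed level was 531 CPM in the T cell markers not used in gates, with 8 of 9 at or above 1 UMI. Of the 43 cells, 32 had 0 UMI of Cd8a, Cd8b1 and Cd4. Of the markers that define the gate, Gzma stood at 1070 CPM and Nkg7 at 804, beside 87.9 and 1531 in the CD8 gate. Prf1 had 2 UMI and Cma1 had 1.

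**Figure D1:**
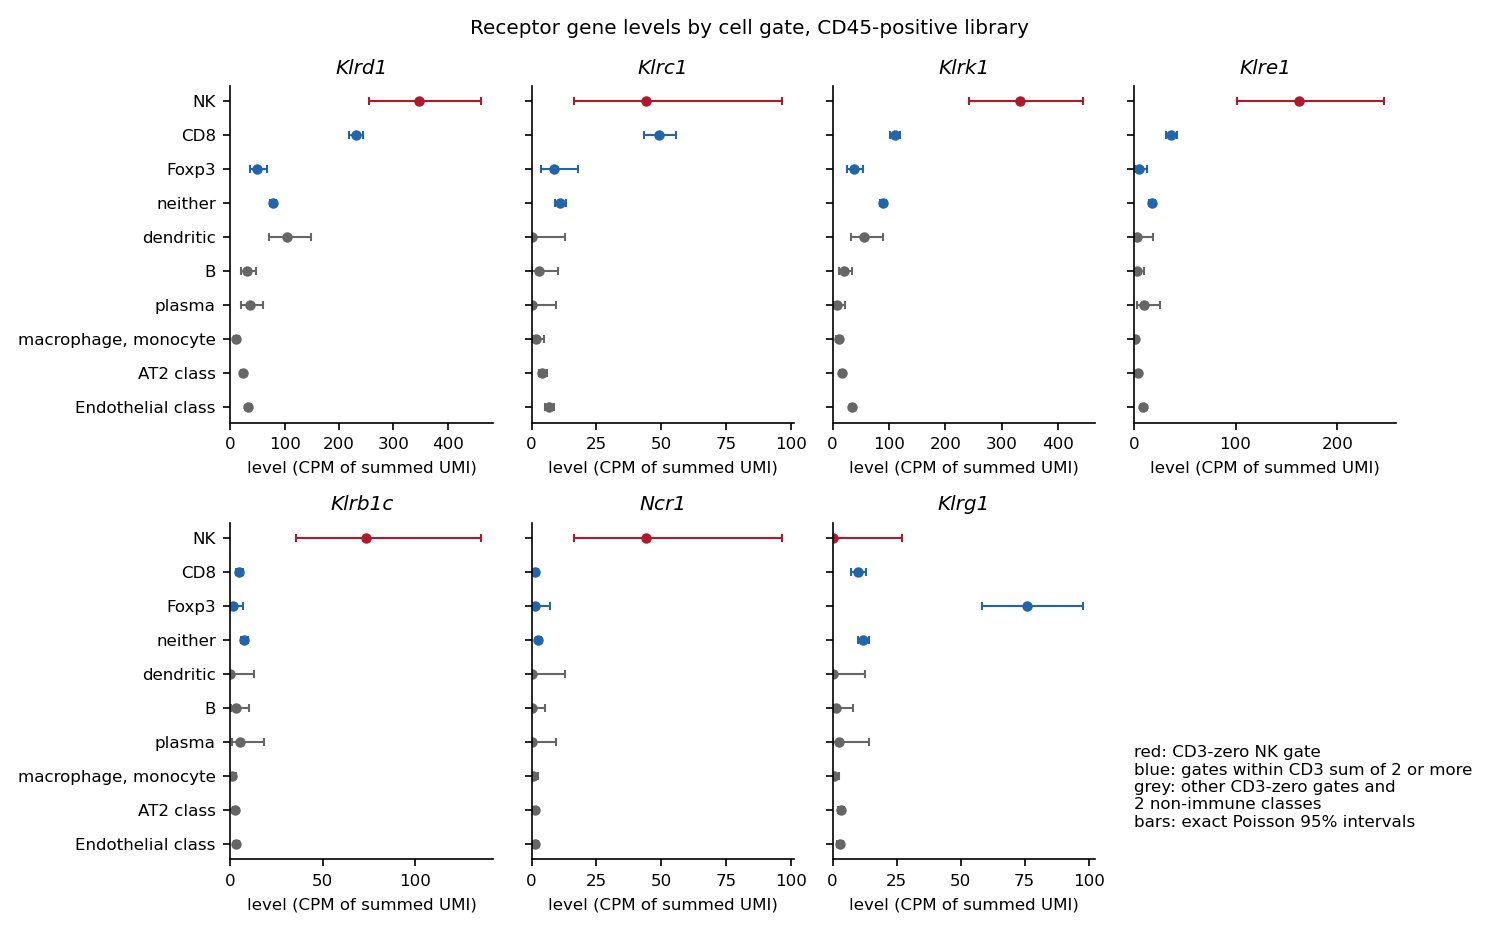
Level of each gene (x axis, CPM, bars for the exact Poisson 95% interval) in 10 groups of cells of the CD45-positive library (y axis). Klrd1 stands high in the NK and CD8 gates (347 and 232 CPM), as does Klrc1 (44.3 and 49.2 CPM). Klrg1 stands apart in the Foxp3 gate (76.1 CPM), and Klrb1c and Ncr1 stand apart in the NK gate (73.8 and 44.3 CPM).

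Klrd1, the CD94 chain, had 2461 UMI in Immune cells, 48.2% of them in the CD8 gate, which held 18.0% of the cells. Its level was 347 CPM (255 to 461) in the NK gate, 232 (219 to 245) in the CD8 gate, 104 (70.3 to 149) in a dendritic cell gate, 77.8 (72.3 to 83.6) in neither and 49.9 (35.6 to 67.9) in the Foxp3 gate. The B cell gate, which should lack the gene, stood at 30.8 CPM (19.3 to 46.6), and macrophages and monocytes at 10.97 CPM (7.03 to 16.3). The interval of the dendritic gate overlapped that of the cells with neither mark, and the interval of the Foxp3 gate that of the B cell gate. In the CD8 gate 44.3% of cells (41.6 to 47.0) had a Klrd1 UMI at a median of 3314.5 UMI per cell, beside 5.96% (3.29 to 9.79) of the B cell gate at a median of 2731. After thinning every cell to 1000 UMI, which left out 0 cells, the shares were 18.98% and 2.55%. Single cells of the CD8 gate held up to 26 Klrd1 UMI.

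Klrc1, the inhibitory NKG2A partner of CD94, was the most CD8-centred of the 7, with 58.6% of its 430 Immune UMI in the CD8 gate. It stood at 49.2 CPM (43.3 to 55.7) there, at 44.3 (16.2 to 96.4) in the NK gate, at 10.99 (8.99 to 13.3) in neither, at 8.73 (3.51 to 18.0) in the Foxp3 gate and at 2.80 (0.339 to 10.1) in the B cell gate. The CD8 and NK gates could not be told apart for this gene (NK over CD8, 0.899, interval 0.327 to 1.98), and the cells of neither could not be told apart from the Foxp3 gate. Dendritic cells had 0 Klrc1 UMI, for which 3 counts give a limit of 10.4 CPM.

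Over the cells of neither, the CD8 gate was higher by 2.98 times (2.71 to 3.27) for Klrd1, by 4.48 times (3.55 to 5.68) for Klrc1 and by 2.05 times (1.66 to 2.54) for Klre1. These 3 of 7 passed 2-fold, beside 1.76% of the 11398 genes with at least 20 UMI in the pair of gates, and 1 (Ncr1) was at least 2-fold lower, beside 4.53% of those genes. The median ratio of the 7 was 1.24, beside 0.984 over all genes tested. Klre1 dropped below 2-fold (1.56) without the barcodes that passed another gate, and also (1.97, 1.95 and 1.88) with at least 3, 5 or 10 CD3 UMI. Klrk1 differed little (1.24, 1.12 to 1.38). Its ratio was 1.06 without the barcodes that passed another gate, which were 322 of the CD8 gate and 1070 of neither. It was 1.11 and 1.08 with at least 5 or 10 CD3 UMI, and 1.41 in cells of at least 3000 UMI. Klrg1 (0.826, 0.580 to 1.16) and Ncr1 (0.467, 0.156 to 1.17, on 6 against 24 UMI) had intervals that held 1. Klrb1c was lower (0.622, 0.375 to 0.9998), and its ratio was 1.23 among cells with at least 10 CD3 UMI. Cells of neither with 1 CD8 UMI (571) stood between the gates for Klrc1, at 24.6 CPM against 7.12 in the 2102 cells with none (3.45 times, 2.31 to 5.16), and for Klrd1 at 124 against 64.7 CPM (1.92 times, 1.64 to 2.23).

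**Figure D2:**
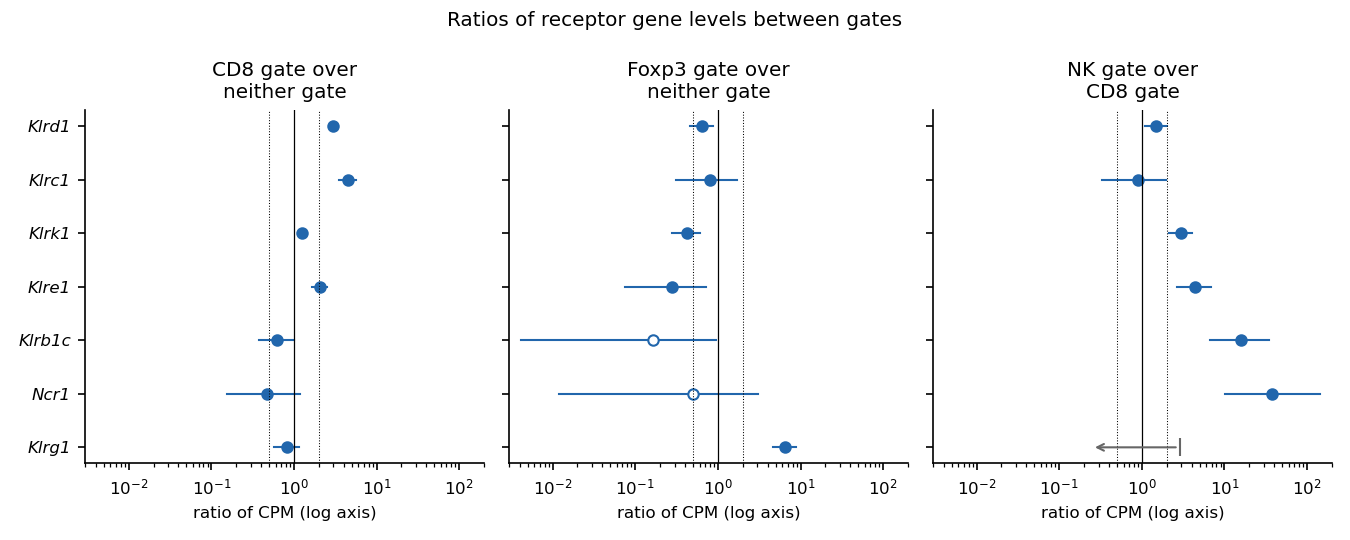
Ratio of CPM (x axis, log scale, exact 95% intervals) of the 7 genes (y axis) for the CD8 gate over neither, the Foxp3 gate over neither and the NK gate over the CD8 gate. Dotted lines mark 2-fold, open points rest on at most 3 UMI in 1 gate, and the arrow for Klrg1 marks an upper bound of 2.89 at 0 UMI. Klrc1 (4.48) leads the first panel, Klrg1 alone lies above 2-fold in the second (6.43), and Ncr1 (37.8) and Klrb1c (15.7) lead the third.

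Within the CD8 gate, the CD94-NKG2A pair was higher in cells with transcripts of inhibitory receptors. The 612 cells with a UMI of Pdcd1, Lag3 or Havcr2 had Klrd1 at 309 CPM (288 to 332) and the 726 cells without at 159 (144 to 175), a ratio of 1.94 (1.72 to 2.19). For Klrc1 the levels were 72.2 (61.9 to 83.6) and 27.9 CPM (21.9 to 35.04), a ratio of 2.59 (1.96 to 3.44). Klre1 was higher as well (47.0 against 27.5 CPM, 1.71 times, 1.26 to 2.32). Klrk1 was not (105 against 116 CPM, 0.907 times, 0.766 to 1.07), and Klrg1 and Klrb1c had intervals that held 1. Only Klrc1 of the 6 genes with enough UMI was past 2-fold, beside 4.88% of 9315 genes, and 0 were 2-fold lower, beside 1.44%. Of 7 other killer lectin and Ly49 genes tested, 3 were at least 2-fold higher and 1 lower, with a median ratio of 0.879. Klri2, a partner of KLRE1, was 5.45 times higher (3.10 to 10.2) and Klrc2, which encodes the NKG2C relative of NKG2A, 2.28 times (1.56 to 3.37). Of 11 cytotoxic effector genes 2 were higher and 1 lower, and of 14 exhaustion and naive genes 6 were higher and 2 lower. Ifng was 5.63 times higher and Tox, a factor of exhausted T cells, 2.92 times. Tcf7 (0.483) and Lef1 (0.266), factors of naive and memory T cells, were lower. Cells with such UMI had a higher median depth (3469 against 3185.5 UMI) and more CD3 (2597 against 1712 CPM), and the part of these in the ratios was not tested. Thinned to 1000 UMI per cell, the Klrd1 ratio was 1.68.

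Klrk1, the activating receptor NKG2D, stood at 332 CPM (242 to 444) in the NK gate, 111 (102 to 120) in the CD8 gate, 89.3 (83.4 to 95.5) in neither, 55.6 (31.8 to 90.3) in dendritic cells, 37.4 (25.2 to 53.4) in the Foxp3 gate and 20.99 (11.7 to 34.6) in the B cell gate. The NK gate was 2.99 times higher than the CD8 gate (2.16 to 4.06). A Klrk1 UMI was in 25.7% of the CD8 gate (10.7% thinned), 21.7% of neither (8.83% thinned, median depth 3040) and 5.53% of the B cell gate (2.55% thinned).

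Klre1 stood at 162 CPM (102 to 246) in the NK gate, 36.9 (31.8 to 42.6) in the CD8 gate, 18.0 (15.4 to 20.9) in neither, 4.99 (1.36 to 12.8) in the Foxp3 gate and 2.80 (0.339 to 10.1) in the B cell gate. Its partner Klri2 was at 17.8 CPM in the CD8 gate (91 UMI) and 14.8 CPM in the NK gate (2 UMI), and Klri1 had 0 UMI in both.

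Klrb1c and Ncr1, the NK cell markers NK1.1 and NKp46, were sparse. Of 152 Klrb1c UMI in Immune cells, 72 were in neither, 33 in CD3-zero cells and 24 in the CD8 gate, and of 54 Ncr1 UMI these groups held 24, 12 and 6. By level the NK gate was highest for each, at 73.8 CPM (35.4 to 136) for Klrb1c and 44.3 (16.2 to 96.4) for Ncr1, on 10 and 6 UMI. For Klrb1c this was 15.7 times the CD8 gate (6.72 to 34.1), and for Ncr1 37.8 times (10.1 to 141). A UMI was in 20.9% of the NK gate for Klrb1c (6.98% thinned) and 11.6% for Ncr1 (4.65% thinned), beside 0.426% and 0% of the B cell gate, where 0 of 235 cells allows up to 1.28%. Compared with the CD8 gate, 3 of the 6 genes with enough UMI (Klrk1, Klrb1c and Klre1) passed 2-fold towards the NK gate, beside 11.5% of 9376 genes, and Klrg1 counted as 2-fold lower, beside 23.6%, on 0 against 50 UMI. Its ratio has an upper bound of 2.89, so at this depth a lower Klrg1 level in the NK gate was not detectable. Ncr1 fell short of the 20 UMI needed to be counted. Klrd1 was 1.50 times higher (1.09 to 2.005). With at least 4 markers in place of 3, the gate kept 16 cells, with Klrd1 at 649.7 CPM. Counting also the cells that passed another gate, it had 96 cells, with Klrd1 at 226 and Klrk1 at 208 CPM.

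Cells with these transcripts were found at 0 CD3 UMI and at each higher range. Of the 44 Immune cells with an Ncr1 UMI, 9 had 0 CD3 UMI, 8 had 1, 18 had 2 to 4 and 9 had 5 or more. For the 139 with a Klrb1c UMI these numbers were 27, 19, 35 and 58. At least 2 CD3 UMI were thus in 61.4% of the cells with an Ncr1 UMI and 66.9% of those with a Klrb1c UMI. These shares were near the 57.2% of all Immune cells. Gzma, which encodes granzyme A, stood at 1632 CPM in the cells with an Ncr1 UMI. A split of the cells of neither by Gzma, chosen after the values were seen, found 39 cells with at least 3 Gzma UMI. They held Klrb1c at 108 CPM (60.4 to 178) beside 5.56 (4.13 to 7.33) in the 2531 cells with 0, and Ncr1 at 79.2 (39.5 to 142) beside 1.22 (0.610 to 2.19). Klre1 (173 against 14.9 CPM), Klrd1 (238 against 74.3), Klrk1 (266 against 85.8) and Klrg1 (57.6 against 11.4) were higher too, while Klrc1 rested on 3 UMI (2.003 times, 0.406 to 6.03). In these 39 cells the T cell markers not used in gates were at 1389 CPM, 8 of 9 with a UMI, and the 8 NK markers at 15108 CPM with all 8 present. Most of that sum was Ccl5 (10408 CPM, beside 3299 in the CD8 gate) and Gzma itself (2872 CPM), while Eomes had 12 UMI, Cma1 10 and Prf1 2. Of 10 Ly49 genes, a family in which many products bind class I molecules, Klra4, Klra7, Klra8 and Klra9 were high in both groups. Klra8 was at 108 CPM in the 39 cells and 81.2 in the NK gate, beside 1.37 in the CD8 gate, and Klra4 at 101 and 81.2 beside 3.91. The others were not: Klra2 and Klra5 had 0 UMI in both groups, Klra1 had 1 UMI in each, Klra6 and Klra17 had 0 UMI in the 39 cells with 1 and 5 in the NK gate, and Klra3 had 1 and 4.

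**Figure D3:**
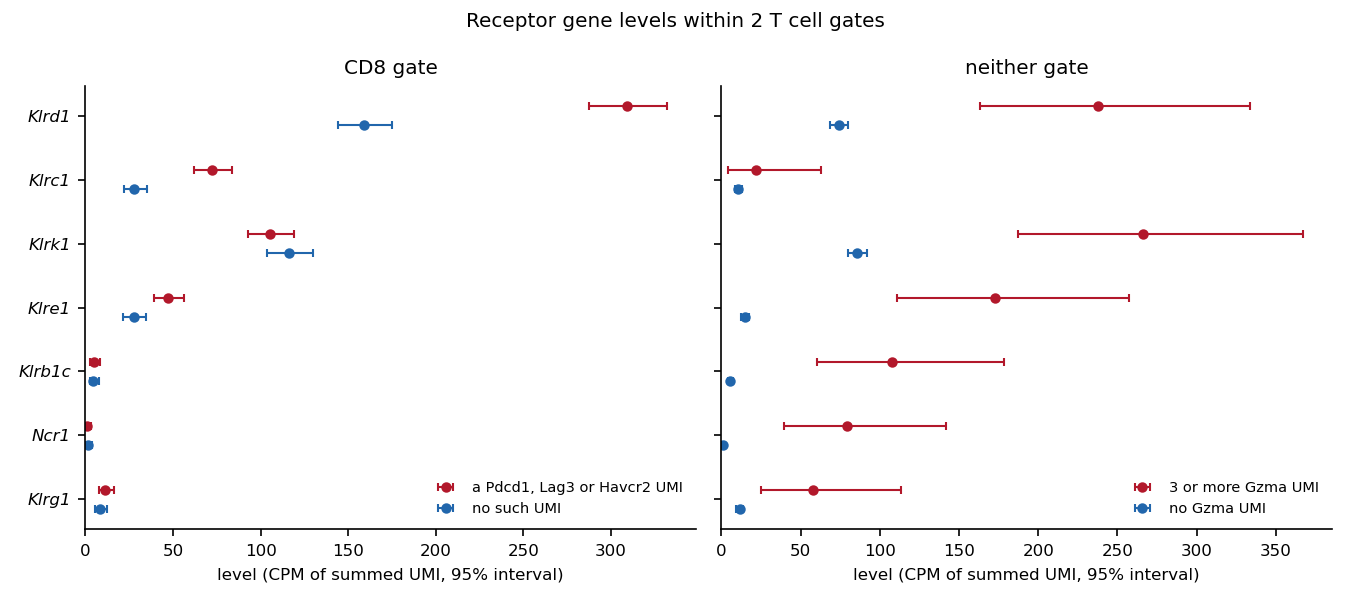
Level of each gene (x axis, CPM with exact Poisson 95% intervals) in the CD8 gate with or without a UMI of Pdcd1, Lag3 or Havcr2 (left) and in the cells of neither with at least 3 or with 0 Gzma UMI (right). Klrd1 and Klrc1 are higher at left with such UMI (309 and 72.2 CPM), and Klrb1c (108 CPM), Ncr1 (79.2 CPM) and Klre1 (173 CPM) stand apart at right.

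Klrg1 had its peak in the Foxp3 gate. It stood at 76.1 CPM (58.2 to 97.7) there, at 11.8 (9.75 to 14.2) in neither, at 9.77 (7.25 to 12.9) in the CD8 gate and at 1.40 (0.0354 to 7.80) in the B cell gate, and the NK gate had 0 UMI, for which 3 counts give a limit of 22.1 CPM. The intervals of the cells with neither mark and of the CD8 gate overlapped. The 191 cells of the Foxp3 gate, 2.57% of Immune cells, held 23.9% of the 255 Klrg1 UMI. A Klrg1 UMI was in 17.8% of them (12.7 to 24.0) at a median depth of 3519 UMI, in 3.14% of the CD8 gate and in 0.426% of the B cell gate, and thinned to 1000 UMI in 6.81%, 0.598% and 0.426%. The 53 cells with both CD8 and Foxp3 had 29.5 CPM (11.9 to 60.8). Within neither, the 392 cells with a Cd4 UMI had 20.2 CPM (13.7 to 28.7). Of 5 CD3-zero cells in a gate of group 2 innate lymphoid cell markers, 1 held 2 Klrg1 UMI.

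Over the cells of neither, the Foxp3 gate had 6.43 times the Klrg1 level (4.63 to 8.86), with 1 of 7 genes at least 2-fold higher beside 3.62% of 10829 genes, and over the CD8 gate 7.79 times (5.27 to 11.6), with 1 of 6 beside 3.7% of 9650. The other 5 of those 6 were at least 2-fold lower than in the CD8 gate, beside 7.09%, from 0.135 times (0.0364 to 0.352) for Klre1 to 0.337 times (0.225 to 0.487) for Klrk1, with Klrb1c on a single UMI. With at least 2 Foxp3 UMI the former ratio was 12.2, and among cells with at least 10 CD3 UMI it was 3.61. The other genes were lower or not distinguishable. Klrk1 had 0.419 times the level in neither (0.281 to 0.603; 0.715 after thinning), Klre1 0.277 times (0.0747 to 0.723) and Klrd1 0.642 times (0.455 to 0.882). The Klrd1 ratio was 0.342 with at least 5 CD3 UMI, 0.902 in cells of at least 3000 UMI and 0.889 with at least 2 Foxp3 UMI. On a single UMI each, Klrb1c had 0.166 times (0.00413 to 0.952) and Ncr1 0.497 times (0.0121 to 3.05), and Klrc1, with 7 UMI, 0.795 times (0.312 to 1.70). Of the 7, 4 were thus at least 2-fold lower (Klrk1, Klrb1c, Klre1 and Ncr1), beside 10.5% of genes, and the median ratio was 0.497 beside 1.01 over all genes. The Foxp3 gate did not differ from the B cell gate beyond counting error for Klrd1 (1.62, 0.940 to 2.86) or Klrk1 (1.78, 0.930 to 3.57), while for Klrg1 the ratio was 54.4 (9.40 to 2182.5) on 61 UMI against 1.

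A list of 20 effector regulatory T cell genes gave the setting. Of 19 with enough UMI, 14 were at least 2-fold higher in the Foxp3 gate than in neither and 0 lower, with a median ratio of 3.21, beside 3.62% and 10.5% of all genes tested and a median of 1.01. Among them were Il1rl1 (5.96, 4.19 to 8.39), the IL-33 receptor, Il2ra (5.18, 4.18 to 6.39) and Areg (3.27, 2.59 to 4.09), the EGF family ligand amphiregulin. Within the Foxp3 gate the 34 cells with a Klrg1 UMI had Il1rl1 at 2.06 times (1.08 to 3.77) and Areg at 2.02 times (1.28 to 3.13) the level in the 157 without, while for Ikzf2 (1.25, 0.997 to 1.56) the interval held 1. Tnfrsf4 was lower (0.688, 0.514 to 0.908). Of 16 genes of the list with enough UMI, 2 were at least 2-fold higher and 1 lower, beside 3.73% and 9% of 4077 genes, and the median ratio was 1.19 beside 0.986 over all genes. Cells with a Klrg1 UMI also held more Ccl5 (2.30 times, 2.004 to 2.63) and Gzma (3.53 times, 1.37 to 8.91, on 10 against 12 UMI), and more dendritic cell markers (268 against 47.8 CPM, 4 of 7 against 7 of 7 with a UMI, Zbtb46, Xcr1 and Clec9a at 0), whose part in the ratios was not tested. Klrd1 was 2.54 times higher in them (1.25 to 5.01), but 1.03 times after thinning.

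Over all Immune cells, those with at least 2 CD3 UMI had more of 5 of the 7 genes by at least 2-fold than the CD3-zero cells, beside 7.81% of 12212 genes, and 0 of the 7 were 2-fold lower, beside 9.59%. The ratios were 7.03 (4.24 to 12.5) for Klrg1, 6.13 (4.20 to 9.28) for Klrc1, 3.68 (3.24 to 4.20) for Klrd1, 3.45 (2.98 to 4.004) for Klrk1 and 2.70 (2.07 to 3.57) for Klre1. With the level of the B cell gate subtracted from both groups, they were 19.2 for Klrg1, 20.6 for Klrc1, 25.2 for Klrd1, 11.7 for Klrk1 and 3.52 for Klre1, without intervals. The B cell gate is itself part of the CD3-zero cells, and its level rests on 1 UMI for Klrg1 and 2 for Klrc1. For Klrd1 it was 30.8 CPM, close to the 34.6 of all CD3-zero cells and above the 10.97 of macrophages and monocytes. The subtracted ratios thus rest on small remainders and give no size of the difference. Before subtraction, the intervals held 1 for Klrb1c (1.46, 0.976 to 2.24) and Ncr1 (1.26, 0.628 to 2.69). The median over the 7 was 3.45 beside 0.995 over all genes. Finer steps of CD3 parted the genes further. Klrd1 went from 34.6 CPM (30.6 to 39.1) at 0 CD3 UMI to 58.6 (49.6 to 68.7) at 2, 131 (122 to 140) at 5 to 9 and 284 (226 to 351) at 20 or more. Klrc1 went from 3.79 CPM (2.54 to 5.44) to 74.3 (46.6 to 113) over the same range. Klrk1 levelled at 101 CPM (92.9 to 109) at 5 to 9 and 105 (94.0 to 118) at 10 to 19. Ncr1 was at 3.12 CPM (1.35 to 6.16) at 2 CD3 UMI and had 0 UMI in the 697 cells at 10 to 19. With at least 10 CD3 UMI in place of 2, its ratio over CD3-zero cells was 0.198, and for Klrc1 and Klrd1 the ratios were 10.95 and 6.04. The share of cells in the CD8 gate's range moved with these steps, from 13.4% at 2 CD3 UMI to 77.2% at 20 or more, as did depth, from a median of 3058 to 4685 UMI, and the part of each in the levels was not tested.

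**Figure D4:**
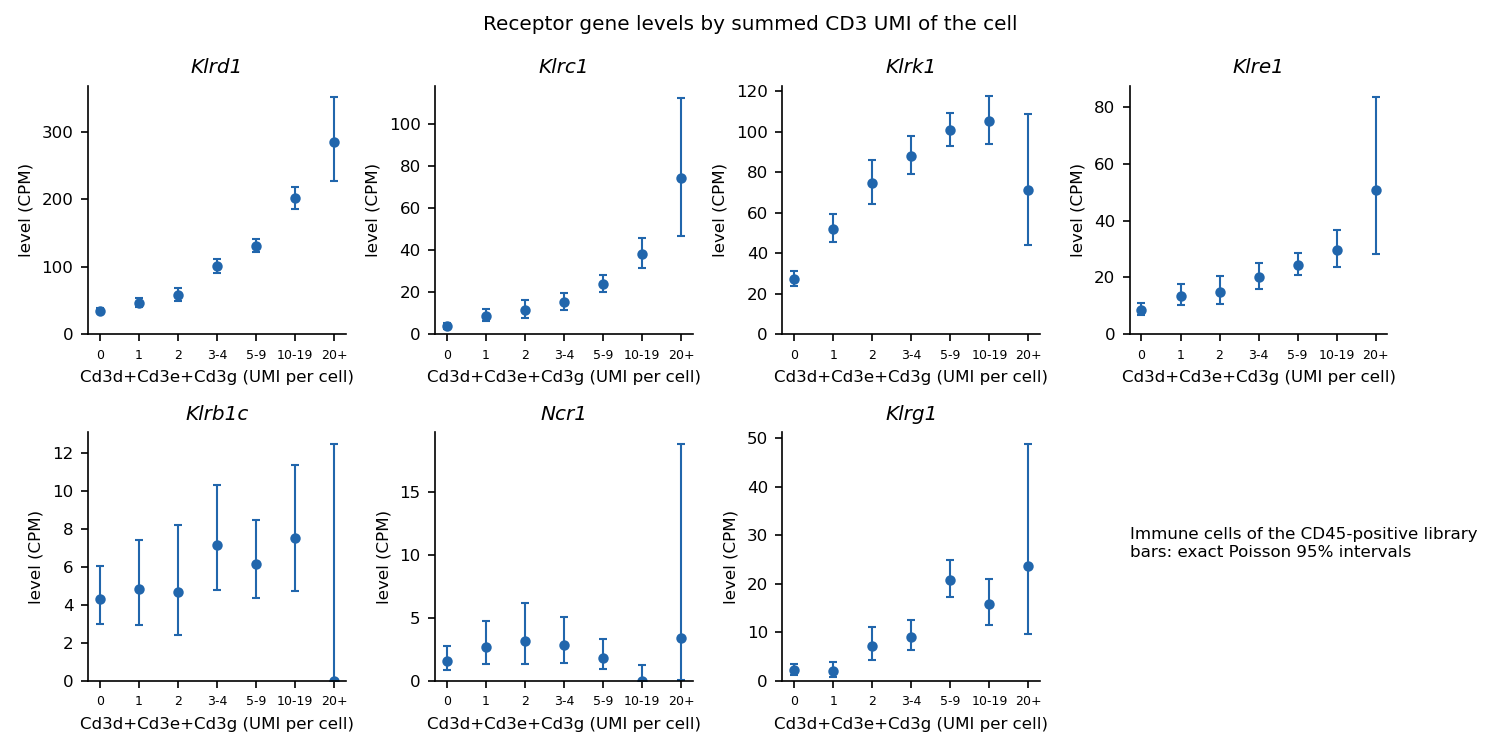
Level of each gene (y axis, CPM with exact Poisson 95% intervals) in Immune cells of the CD45-positive library by the summed UMI of Cd3d, Cd3e and Cd3g in the cell (x axis, 7 steps). Klrd1 and Klrc1 climb to the last step (284 and 74.3 CPM), Klrk1 levels at about 105 CPM before it, and Ncr1 has 0 UMI at 10 to 19.

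Dendritic cells were a further place of Klrd1 and Klrk1 transcripts. Among CD3-zero cells, the 74 cells of the dendritic gate had 3.39 times the Klrd1 level of the B cell gate (1.89 to 6.16) and 9.50 times that of macrophages and monocytes (5.37 to 17.0), and Klrk1 was 2.65 times the B cell gate (1.23 to 5.75). Cd209a is a marker of monocyte-like conventional dendritic cells. The 32 of them with at least 2 Cd209a UMI held 21 of the 30 Klrd1 UMI and stood at 171 CPM (106 to 262). The 36 with at least 2 UMI of Fscn1 and Ccl22 together, markers of mature migratory cells, stood at 58.5 (25.3 to 115). A Klrd1 UMI was in 24.3% of the dendritic gate (9.46% thinned, median depth 3453). The NK markers Prf1, Eomes and Cma1 were at 0 there, Gzma had 2 UMI and Nkg7 12, while Ccl5, which the whole list counts, had 680. In the NK gate itself Prf1, Eomes and Cma1 had 2, 6 and 1 UMI, so these 0 counts carry little weight. Any part of NK or T cell transcripts in the dendritic levels was not tested. Klrg1, Klrb1c, Klrc1 and Ncr1 had 0 UMI in the dendritic gate. T cell markers not used in gates stood at 163 CPM, below the 343 of the B cell gate.

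The genes were found together in the same cells to different degrees. In the NK gate 34 of 43 cells had a UMI of at least 1 of the 7 genes, and 14 cells had at least 3. The share of cells with 0 of the 7 was 20.9% in the NK gate and 37.9% in the CD8 gate. It was 60.9% in neither, 88.1% in the B cell gate and 10.3% in the 39 cells of neither with at least 3 Gzma UMI. In the CD8 gate, the 195 cells with a Klrc1 UMI held Klrd1 at 367 CPM against 208 in the 1143 without (1.76 times, 1.54 to 2.02), Klrk1 at 233 against 89.8 (2.60 times, 2.16 to 3.11) and Klre1 at 96.7 against 26.6 (3.64 times, 2.68 to 4.92), at like median depths of 3334 and 3300 UMI. Klrg1 did not follow: in the CD8 gate its 42 positive cells had Klrd1 at 1.18 times (0.878 to 1.54) and Klrk1 at 0.945 times (0.580 to 1.46) the level of the rest, and Klre1 alone was higher (2.59 times, 1.50 to 4.22), with a median depth of 4442.5 against 3269.5 UMI. Among the cells of neither, the 20 with an Ncr1 UMI held Klrb1c at 11.02 times (3.90 to 25.3) and Klre1 at 8.28 times (4.05 to 15.2) the level of the other 2653.

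As a description over 13 groups of at least 20 cells, which share 1 library, Pearson's r of log2(CPM + 1) was 0.904 between Klrd1 and Klrk1 and 0.861 between Klrb1c and Klre1, and it ran from -0.118 to 0.352 between Klrg1 and the other 6. Of 10977 genes with at least 50 UMI, those most like Klrd1 were Runx3 (0.937), Acot7 (0.863) and Klri2 (0.860), and for Klrc1 Cuedc1 (0.928), Wdr95 (0.907) and Tbx21 (0.901). For Klrk1 they were Klrc2 (0.924), Gm26551 (0.898) and Tcf7 (0.894), for Klre1 Yes1 (0.934), Cnot3 (0.915) and Ppm1f (0.902), and for Klrb1c AV099323 (0.931), Pigb (0.926) and Spry2 (0.923). Ncr1 was most like Klra8 (0.971), Klrb1f (0.939) and Esam (0.886), and Klrg1 like Sv2c (0.934), Ttn (0.927) and Bmp7 (0.921). Several of these partners rest on few UMI, such as AV099323 with 50 and Ttn with 52.

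Adaptor genes of the receptors were spread in other ways than the receptors. Hcst, the DAP10 partner of NKG2D, was at 423 CPM in the CD8 gate, 355 in neither, 279 in the Foxp3 gate, 244 in the NK gate and 95.1 in the B cell gate. Tyrobp (DAP12) was at 3602 CPM in macrophages and monocytes and 1756 in the NK gate. It was at 907 in neither, 781 in the B cell gate and 514 in the CD8 gate. Fcer1g, the chain that NKp46 uses, was at 721 CPM in neither, 442 in the B cell gate and 364 in the CD8 gate. For both genes the CD8 gate thus lay below the B cell gate. Tyrobp was 3.42 times higher in the NK than in the CD8 gate (2.98 to 3.91), as was Fcer1g (3.30, 2.80 to 3.88). Cd247, the zeta chain, was lower there (0.316, 0.102 to 0.742). Of the 16 adaptor and kinase genes, 0 passed 2-fold towards the CD8 gate over neither and 1 was lower (Sh2d1b1, 0.467), with a median ratio of 1.04. Of 15 other killer lectin and Ly49 genes tested in that pair, 2 were higher (Klri2, 4.59, and Klrc2, 2.37) and 4 lower (Klra7, Klra8, Klra2 and Klra9), and of 12 cytotoxic effector genes 6 were higher, with Gzmm (4.54), Ifng (4.50) and Nkg7 (4.02) in the lead, and Gzmc lower (0.165). Over all genes tested in that pair, 1.76% were higher and 4.53% lower.

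Ligand genes were read in the CD45-negative library, where T cell transcripts were rare. Cdh1, the E-cadherin that KLRG1 binds, was at 280 CPM (266 to 294) in AT1 cells, 255 (229 to 283) in Ciliated and 187 (181 to 194) in AT2 cells, and at 9.74 (7.89 to 11.9) in Endothelial cells. H2-T23, whose product Qa-1 is bound by CD94-NKG2A, was at 215 CPM (206 to 224) in Endothelial cells, 123 (118 to 128) in AT2 and 91.4 (83.5 to 99.9) in AT1 cells. The NKG2D ligand genes had low levels. Raet1e reached 5.78 CPM (3.93 to 8.21) in AT1 and 2.64 (1.95 to 3.49) in AT2 cells, and Ulbp1 had 0 UMI in AT1 and 1 UMI in AT2 cells. Clec2d, a ligand of the Klrb1 family, stood at 284 CPM (274 to 295) in Endothelial cells and 25.8 (23.5 to 28.2) in AT2 cells. The levels of Cdh1 and H2-T23 in the CD45-positive Immune class were 18.4 and 65.4 CPM.

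**Figure D5:**
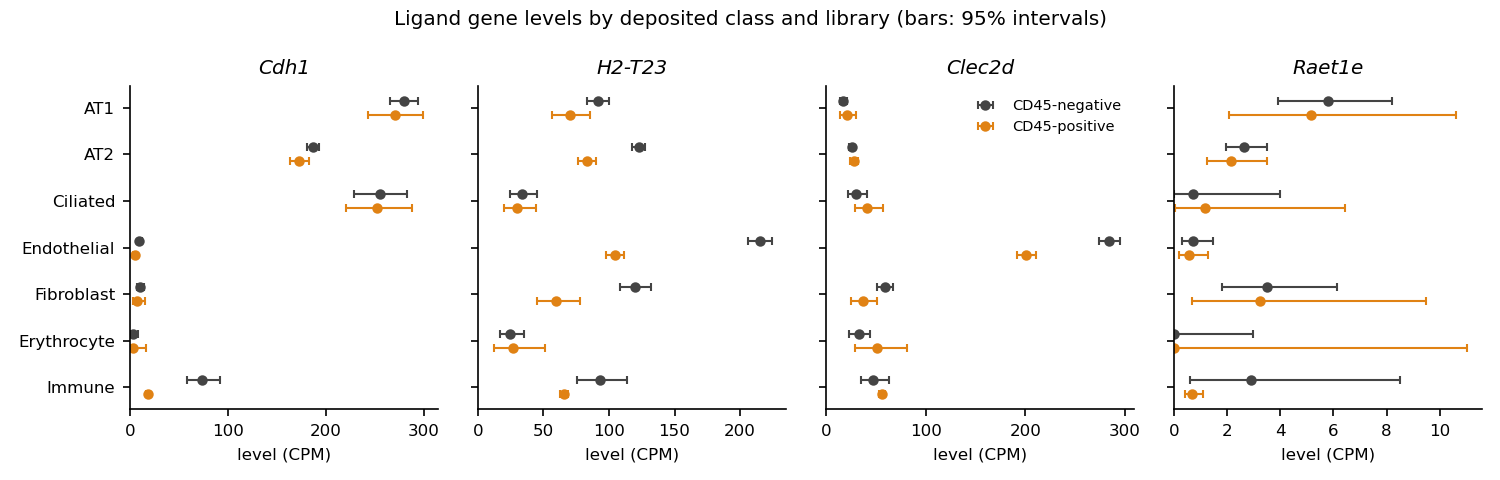
Level of 4 ligand genes (x axis, CPM with exact Poisson 95% intervals) in the 7 deposited classes (y axis) of the CD45-negative (dark) and CD45-positive (orange) libraries. Cdh1 is high in the epithelial classes (187 to 280 CPM in the CD45-negative library), H2-T23 and Clec2d are highest in Endothelial cells (215 and 284 CPM), and Raet1e stays below 6 CPM in each class.

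Outside the Immune class, the 3994 other cells of the CD45-positive library held Klrd1 at 26.2 CPM (24.0 to 28.6), Klrk1 at 24.4 (22.3 to 26.7) and Klrg1 at 2.96 (2.25 to 3.81). These levels were near those of the B cell gate. The 3849 non-immune cells of the CD45-negative library held Klrd1 at 0.176 CPM (0.0706 to 0.362), and Klrg1, Klrb1c and Ncr1 had 0 UMI in that whole library.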

How the data were processed

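Cells of 1 CD45-negative and 1 CD45-positive fraction were profiled with the 3' v2 droplet kit, with 6000 cells loaded per channel and a second read of 98 bases per the labels. The CD45-positive library holds 11432 cells, more than were loaded per channel. It is not stated whether a library is 1 channel or several merged. The deposited table holds whole-number UMI counts per gene and cell, made by the authors with Cell Ranger 1.1.0 on mm10 per the submitters' processing notes, and a deposited table of cell annotations gives each cell's class and library. All 15389 cells and 17790 genes were kept, and no doublet caller was run. UMI were summed over the cells of a gate and divided by the gate's total, as counts per 1000000 (CPM). Levels have exact Poisson intervals, shares exact Clopper-Pearson intervals and ratios exact conditional binomial intervals, all at 95%. A count of 0 was given a limit of 3 counts. Features were compared across the whole table where 2 gates held at least 20 UMI together, and past 2-fold is a size and not a test. Gates, lists and the 7 genes were chosen with earlier results of these data known. The text names all 7 genes, of each list up to 6 genes by highest and lowest ratio, and the 3 genes of highest Pearson r with each member among genes of at least 50 UMI. Cells were also thinned to 1000 UMI. The ratio code was tested on simulated data. Alternatives changed the CD3, CD8, Foxp3 and NK marker thresholds, the depth minimum, the background taken from the B cell gate, the averaging, and the barcodes left out. Tables were handled with pandas 2.3.3 and numpy 2.4.6, intervals with scipy 1.17.1 and plots with matplotlib 3.10.9, in Python 3.11.15. Positions are from GENCODE and upstream sequences from RefSeq, both on GRCm38. A split of the cells of neither by 1 further gene programme is not reported here.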

Additional observations from a re-analysis of the deposited data

Results flagged for a closer look

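The comparisons of the receptors between gates did not use the CD45-negative library, and 4 of the 7 genes had UMI there above the limit of 3 counts: Klrd1 had 36, Klrk1 20, Klrc1 4 and Klre1 22. Of the 36 Klrd1 UMI, 29 lay in 4 of the 108 Immune cells, with up to 18 in a single cell. These 4 were parted from the other 104 by having a Klrd1 UMI. Those 4 cells also held 13 Klrk1, 12 Klre1, 71 Gzma, 37 Nkg7 and 74 Ccl5 UMI, and 3 Cd3d, 1 Cd3e and 4 Cd3g UMI. The other 104 Immune cells held 1 Klrk1 and 7 Gzma UMI, with 4 Cd3d, 0 Cd3e and 5 Cd3g UMI. Klrg1, Klrb1c and Ncr1 had 0 UMI.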

How the results depend on the processing

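No paired analysis was possible because there was 1 library per group. Of 355 values of 43 results under the alternatives, 287 stayed within the main interval, 67 moved outside it and 1 whose main interval excluded 1 crossed it, namely Klrb1c in the CD8 gate over neither, which was 1.23 with at least 10 CD3 UMI. Ratios whose main interval held 1 also crossed 1 under some alternatives, among them Klrg1 in the CD8 gate over neither, Klrc1 in the Foxp3 gate over neither (1.33 in cells of at least 3000 UMI) and Ncr1 in 3 comparisons. The thresholds of 5 and 10 CD3 UMI, the barcodes in both libraries, the cells of at least 3 Gzma UMI and the wider NK gate were chosen after seeing the data. The cause of each move was not tested. With the B cell gate level subtracted, values moved to Klrg1 19.2, Klrd1 25.2, Klrk1 11.7, Klrb1c 2.31 and Klrc1 20.6 for at least 2 over 0 CD3 UMI, to Klrd1 4.27 for the CD8 gate over neither, to Klrd1 0.407 and Klrk1 0.241 for the Foxp3 gate over neither, to Klrd1 0.0952 and Klrk1 0.183 for the Foxp3 gate over the CD8 gate. With at least 10 CD3 UMI, values moved to Klrd1 6.04, Klrc1 10.95, Klre1 3.66 and Ncr1 0.198 for at least 2 over 0 CD3 UMI, to Klrg1 1.18, Klrd1 3.56, Klrk1 1.08, Klrb1c 1.23 and Ncr1 0 for the CD8 gate over neither, to Klrg1 3.61, Klrd1 0.240, Klrk1 0.197 and Ncr1 0 for the Foxp3 gate over neither, to Klrg1 3.05, Klrd1 0.0674 and Klrk1 0.184 for the Foxp3 gate over the CD8 gate. With at least 5 CD3 UMI, values moved to Klrd1 4.57 for at least 2 over 0 CD3 UMI, to Klrk1 1.11 for the CD8 gate over neither, to Klrd1 0.342 for the Foxp3 gate over neither, to Klrd1 0.119 for the Foxp3 gate over the CD8 gate. With at least 2 Foxp3 UMI, values moved to Klrg1 12.2 and Klrd1 0.889 for the Foxp3 gate over neither, to Klrg1 14.7 and Klrd1 0.299 for the Foxp3 gate over the CD8 gate. With at least 4 NK markers, values moved to Klrd1 649.7 and Klrk1 464 for the NK gate in CPM. In cells of at least 3000 UMI, values moved to Klrd1 3.40 and Klrk1 1.41 for the CD8 gate over neither, to Klrd1 0.902 and Ncr1 0 for the Foxp3 gate over neither, to Ncr1 0 for the Foxp3 gate over the CD8 gate. For the NK gate in CPM they were Klrd1 488. Counting NK gate cells that passed another gate, values moved to Klrd1 226 and Klrk1 208 for the NK gate in CPM. Thinned to 1000 UMI, values moved to Klrc1 9.64 for at least 2 over 0 CD3 UMI, to Klrg1 0.571, Klrd1 2.69 and Klrc1 3.18 for the CD8 gate over neither, to Klrk1 0.715, Klrb1c 0 and Klre1 0 for the Foxp3 gate over neither, to Klrg1 13.1, Klrk1 0.584, Klrb1c 0 and Klre1 0 for the Foxp3 gate over the CD8 gate. For the CD8 gate with over without inhibitory receptor UMI they were Klrd1 1.68. For the Foxp3 gate with over without Klrg1 they were Klrd1 1.03. Without cells of at least 3 Gzma UMI, values moved to Klrb1c 0 and Ncr1 0 for the Foxp3 gate over neither, to Klrb1c 0 and Ncr1 0 for the Foxp3 gate over the CD8 gate. Without barcodes that passed another gate, values moved to Klrd1 4.33, Klrc1 9.62 and Klre1 4.16 for at least 2 over 0 CD3 UMI, to Klrd1 2.47, Klrk1 1.06 and Klre1 1.56 for the CD8 gate over neither, to Klrd1 0.451 for the Foxp3 gate over neither. No value could be had for Klrb1c in the Foxp3 gate over neither or over the CD8 gate with the B cell gate level subtracted, nor for Ncr1 in the Foxp3 gate over the CD8 gate with at least 10 CD3 UMI. With 1 library per fraction, differences between mice or captures could not be measured, and genes with few UMI (Ncr1, Klrb1c) are limited by counting.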
